A study of Mus musculus with 13 samples.

Results

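The genes described here encode the proteins of the cytosolic ribosome, and they were compared between parametrial white adipose tissue (pmWAT) of control mice and of mice that had lost Lmna in adipocytes. They were chosen by name. A gene was taken if it was annotated as protein coding in GENCODE, if its symbol was Rpl or Rps followed by a number and was not that of an Rps6 kinase, and if it held at least 100 counts summed over the 13 libraries. Of the 33618 genes in the count table, 88 protein-coding genes had such a symbol and 83 of them held enough counts. Of these, 73 are the genes usually listed as ribosomal proteins and 10 are paralogues, retrogenes or genes that carry a similar symbol. Another 6 ribosomal proteins whose symbols the rule does not match (Rplp0, Rplp1, Rplp2, Rpsa, Fau and Rack1) were measured beside them. The rule used names and summed counts and no measured difference between genotypes, but it was set with earlier results of these data known.

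Whole pmWAT was taken from female mice of 2 groups, Lmna fl/fl (n = 7) and Lmna iADKO (n = 6). Both groups carried loxP sites around exons 10 and 11 of Lmna, and only iADKO mice carried Adipoq-CreERT2, a tamoxifen-activated Cre recombinase driven by the adipocyte promoter of Adipoq. All mice, controls included, were injected with tamoxifen at 50 mg/kg on 5 consecutive days at 12 to 14 weeks of age, and tissue was collected 2 weeks posttamoxifen. The controls had no Cre, so an effect of the Cre itself cannot be told apart from that of the deletion. One mRNA library was sequenced per mouse. The tissue was whole, so Cre-negative cells such as macrophages, endothelial cells and progenitors kept their Lmna and contributed RNA in both groups.

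The ribosome is built from ribosomal RNA and a large set of proteins, of which the Rpl proteins belong to the large subunit and the Rps proteins to the small subunit. Each protein is needed in about equal number in every ribosome. Their mRNAs are among the most abundant in most cells, and almost all of them start with a C followed by an uninterrupted run of pyrimidines, the 5′ terminal oligopyrimidine (TOP) motif, through which mTORC1 and the protein LARP1 control their translation. Transcription of the genes, and of the factors that assemble ribosomes in the nucleolus, is raised by MYC. White adipocytes are large lipid-filled cells, while the immune and stromal cells around them are small, so bulk tissue mixes mRNA of very different cells.

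Start sites of several of these genes show runs of pyrimidines in their sequence. The windows below reach from 10 bases before to 20 after the transcription start that RefSeq gives, were read from GRCm39 on the coding strand, and are printed 5′ to 3′ with the longest pyrimidine run of at least 5 bases in capitals. They are shown for members the results turn on, with the paralogues and those of their partners that the RefSeq table held. Rps27l and Rpl22 each have 2 RefSeq starts, and both are printed.
Rps6, chr4:86775585-86775614, minus strand: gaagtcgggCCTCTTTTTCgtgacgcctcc
Rps26, chr10:128462356-128462385, minus strand: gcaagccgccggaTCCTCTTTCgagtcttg
Rpl12, chr2:32851714-32851743, plus strand: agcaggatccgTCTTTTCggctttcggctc
Rpl35, chr2:38895124-38895153, minus strand: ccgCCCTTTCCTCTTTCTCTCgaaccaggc
Rpl7a, chr2:26800809-26800838, plus strand: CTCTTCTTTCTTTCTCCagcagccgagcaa
Rps27, chr3:90120936-90120965, minus strand: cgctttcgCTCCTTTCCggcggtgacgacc
Rps27l, chr9:66853358-66853387, plus strand: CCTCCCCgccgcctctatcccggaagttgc
Rps27l, other start, chr9:66853685-66853714, plus strand: gggcttcagggtcactaacgggcctcgcag
Rpl22, chr4:152410173-152410202, plus strand: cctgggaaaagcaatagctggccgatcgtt
Rpl22, other start, chr4:152408883-152408912, plus strand: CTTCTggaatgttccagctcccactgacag
Rpl22l1, chr3:28859647-28859676, plus strand: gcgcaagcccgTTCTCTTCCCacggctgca
Rpl7l1, chr17:47093563-47093592, minus strand: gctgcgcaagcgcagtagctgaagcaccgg
Rps19bp1, chr15:80148488-80148517, minus strand: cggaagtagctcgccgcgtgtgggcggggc
Rps6, Rps26, Rpl12, Rpl35 and Rpl7a are ribosomal proteins in the strict sense, and each held a run of pyrimidines in the window, although in Rps26 and Rpl12 the first base at the RefSeq start is a g and the run begins after it. Rpl22, also a ribosomal protein in the strict sense, held no run of 5 pyrimidines at one start, and at the other only a run that ends before the start. Rpl7l1 and Rps19bp1, which share a symbol pattern with them, held no run of 5 pyrimidines. The letters CTTTC, searched on the coding strand from 50 bases before to 50 after the start of the GENCODE canonical transcript, were present in 24 of the 73 ribosomal proteins (32.9%) and in 11% of 14446 protein-coding genes with at least 100 counts. CGGAAG, the core bound by ETS factors, was present on either strand from 250 bases before to 50 after the start in 42 of 73 (57.5%), against 25.5% of all these genes. These are matches of letters and not shown binding sites.

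Depth was even, with 18854223 to 19776491 counts on genes per mouse. Lmna itself, on the minus strand of chromosome 3 (GRCm39, 88387454 to 88417299), is counted over the whole gene, so the floxed exons could not be read apart, and its level showed no loss in iADKO. Its lowest, median and highest levels, in counts scaled by edgeR's TMM method to a common library size (CPM), were 74.7, 83.5 and 98.5 in fl/fl and 80.1, 96.8 and 109 in iADKO (log2 fold change 0.19, adjusted p = 0.0785), so the directions given here rest on the labels. In bulk tissue, fewer cells of a type and less RNA per cell cannot be told apart. The 8 adipocyte markers were all lower in iADKO, with a summed level of 17370 to 31200 CPM in fl/fl and 11170 to 17550 CPM in iADKO. Of 9 macrophage markers 7 were higher (1826 to 5327 CPM against 3127 to 5398 CPM), as were 4 of 7 T cell markers (22.6 to 36.6 CPM against 40.0 to 46.6 CPM), 3 of 6 B cell markers (28.6 to 72.5 CPM against 57.6 to 114 CPM) and 2 of 4 epithelial markers (11.1 to 38.6 CPM against 21.3 to 171.5 CPM). Of 5 endothelial markers 2 were lower, and none of the progenitor, mesothelial or skeletal muscle markers passed the threshold. No marker was at 0 in any mouse apart from Myh4 of skeletal muscle.

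Ribosomal protein mRNA was more abundant in iADKO pmWAT across almost the whole family. The 83 genes held between 1.18% and 1.63% of each library's counts in fl/fl (1.42% ± 0.182, SD, n = 7) and between 1.90% and 2.18% in iADKO (2.04% ± 0.113, SD, n = 6). In replicate order the fl/fl mice were at 1.21%, 1.48%, 1.18%, 1.5%, 1.61%, 1.35% and 1.63%, and the iADKO mice at 1.90%, 1.94%, 2.00%, 2.18%, 2.15% and 2.05%. The groups did not overlap, and the lowest iADKO mouse lay above the highest fl/fl mouse. With mitochondrially encoded genes left out of the total, the shares were 1.48% ± 0.181 and 2.10% ± 0.113 (SD, n = 7 and n = 6). Fl/fl replicates 5 and 7, which had the highest shares of their group, also had its highest summed macrophage markers (5327 CPM and 3612 CPM). Both mice stood within the iADKO range of macrophage markers (3127 to 5398 CPM) and below the iADKO range of ribosomal protein share. The part of cell composition in the difference was not tested.

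**Figure D1:**
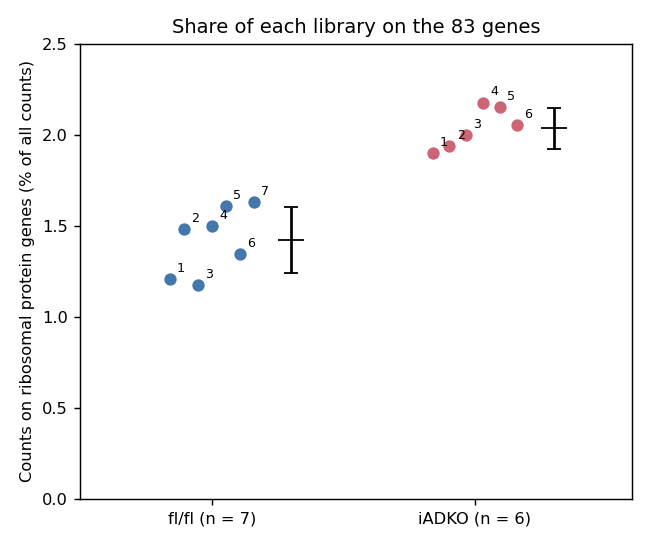
Share of all counts that fell on the 83 cytosolic ribosomal protein genes (%, vertical axis from 0), with a point for each mouse and the mean ± SD for each genotype. The 7 fl/fl mice lie between 1.18% and 1.63% and the 6 iADKO mice between 1.90% and 2.18%.

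Gene by gene, 81 of the 83 passed the filter on low counts. After TMM normalization, which corrects for composition and gives smaller differences than the raw shares, 69 of the 81 were higher in iADKO by edgeR's quasi-likelihood test at an adjusted p under 0.05, and none was lower (75 were higher at an unadjusted p under 0.05). Over all 16753 genes tested, 14.1% were called higher and 16.3% lower. The fitted log2 fold change was above 0 for all 81, with a median of 0.33 (1.26-fold), quartiles of 0.28 and 0.38, and a range of 0.094 to 0.90, against a median of 0.033 over all genes. In 24 members every iADKO mouse lay above every fl/fl mouse, which was the case for 2.71% of all genes tested, and in no member was every iADKO mouse lower, which was the case for 3.93%. Among 3013 other genes at least as abundant as the lower end of the family, the median log2 fold change was -0.053, with 12.7% higher and 31.6% lower.

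The size of the difference depended on the scaling, and its direction did not under any setting run. Scaling by total counts alone moved the median log2 fold change of all genes from 0.033 to 0.24 and that of the members to 0.53. With it 80 of 81 members were called higher, when 44.2% of all genes were. A change of scaling shifts all genes by nearly the same amount, so the members' distance from the median of all genes stays nearly fixed. It was 0.30 with TMM and 0.30 with total counts, and this likeness is no separate result. In all settings no member was called lower. The library names carry animal numbers and name no series. Nearby numbers were grouped here into series, and what these series stand for is not stated. A gap within a series was as wide as a gap between others, so the grouping is uncertain. Only 2 of these series hold both genotypes. In the series with 2 mice of each genotype, the members' median log2 fold change was 0.34 and 81 of 81 were positive, and in the other, with 3 controls and 2 iADKO mice, the median was 0.31 and 80 of 81 were positive. With the series as a block, 46 of 81 members were called higher, when 4.68% of all genes were.

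Mice of 1 genotype also differed from one another in the family as a whole. The mean deviation of the members from their fl/fl means, on the log2 CPM scale, ran from -0.20 to 0.21 over controls and from 0.23 to 0.42 over the knockouts. The highest control (fl/fl replicate 7, 0.21) and the lowest knockout (iADKO replicate 1, 0.23) were nearly level, while fl/fl replicates 1 and 3 were the lowest. The members of 1 mouse therefore moved together and are not independent measurements of the genotype.

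**Figure D2:**
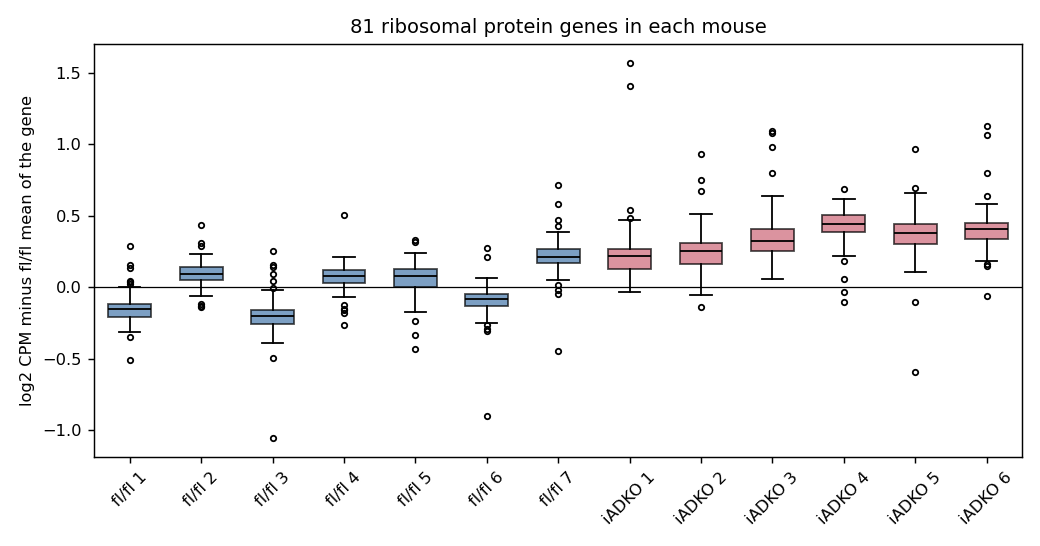
Deviation of each tested member from its fl/fl mean (log2 CPM, vertical axis) in each of the 13 mice (horizontal axis). The mean of the members was -0.20 to 0.21 in fl/fl mice and 0.23 to 0.42 in iADKO mice, with fl/fl replicate 7 close to iADKO replicate 1.

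Both subunits were higher. Of the 43 large subunit proteins in the strict sense, 40 were higher (median log2 fold change 0.32), and of the 30 small subunit proteins 28 were higher (median 0.36). Over all genes tested, 14.1% were called higher and 16.3% lower. The ratio of summed Rpl to Rps counts was 1.27 ± 0.0178 (SD, n = 7) in fl/fl and 1.24 ± 0.0141 (SD, n = 6) in iADKO, and its ranges overlapped (1.24 to 1.29 against 1.22 to 1.26). No test was run on this ratio, which is a sum over the members.

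**Figure D3:**
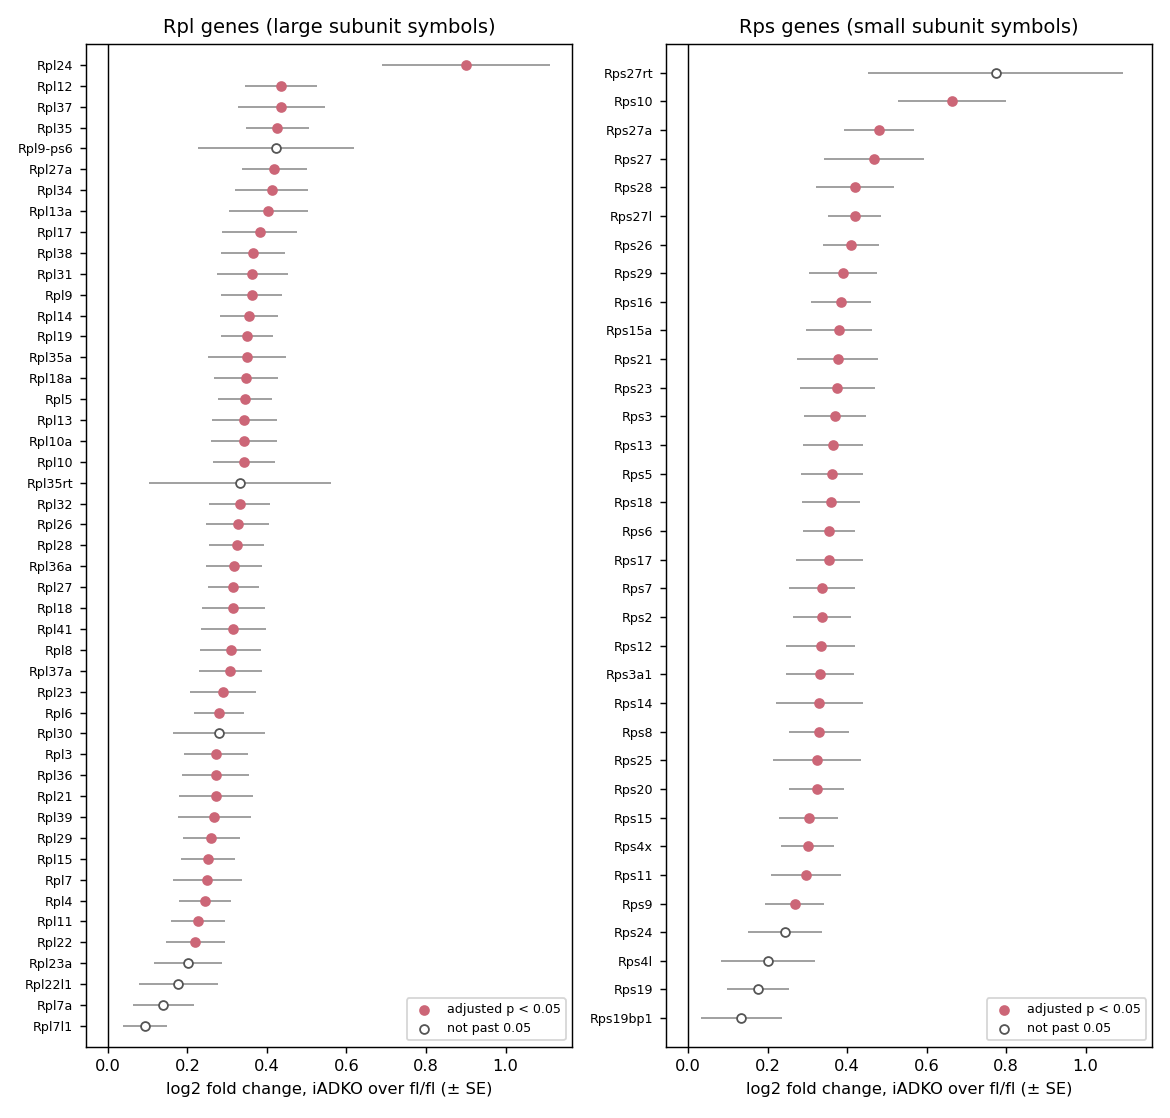
Log2 fold change of each tested gene, iADKO over fl/fl (horizontal axis, bars are ± SE), by subunit, with filled points for genes at an adjusted p under 0.05. All points lie to the right of 0, and most lie near the median of 0.33.

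In the large subunit, Rpl3, which helps shape the peptidyl transferase center, had a lowest, median and highest level of 355.1, 443.7 and 469.2 CPM in fl/fl and 471.8, 506.0 and 559.0 CPM in iADKO. The groups did not overlap, and the log2 fold change was 0.27 (SE 0.081, adjusted p = 0.0213). Rpl5 and Rpl11, which join the ribosome as a complex with a small ribosomal RNA and can bind the p53 regulator Mdm2 when free, rose by 0.35 (adjusted p = 0.00244) and 0.23 (adjusted p = 0.0209) on the log2 scale. Rpl10, one of the last proteins added to the large subunit, was at 392.2, 480.3 and 516.9 CPM in fl/fl and 552.0, 575.7 and 656.2 CPM in iADKO, again without overlap (log2 fold change 0.34, adjusted p = 0.00525). Rpl23 (0.29, adjusted p = 0.0178), Rpl36a (0.32, adjusted p = 0.00464), Rpl39 (0.27, adjusted p = 0.0399) and Rpl41 (0.32, adjusted p = 0.0107), the last one the shortest protein of the ribosome, were higher by similar amounts. Rpl39 lost its call with DESeq2's size factors in edgeR, with no filter, and when any of 8 single mice was left out (highest adjusted p = 0.0928), and Rpl3 lost it without iADKO replicate 4 (adjusted p = 0.0518). With the animal-number series as a block, Rpl3, Rpl4, Rpl7, Rpl11, Rpl22, Rpl23, Rpl39 and Rpl41 were not called, and their fold changes stayed positive.

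Further large subunit members were chosen for their small p values or high fold changes. Rpl19 went from 93.2 ± 8.13 CPM (SD, n = 7) to 118.7 ± 9.45 CPM (SD, n = 6), with a log2 fold change of 0.35 (adjusted p = 0.00199). Rpl35, whose printed window holds the longest run of pyrimidines, was at 121.4, 132.5 and 162.1 CPM in fl/fl and 163.9, 187.4 and 205.4 CPM in iADKO. Its highest fl/fl mouse thus lay just under its lowest iADKO mouse (log2 fold change 0.43, adjusted p = 0.0017). Rpl12, a protein at the base of the ribosomal stalk, rose by 0.44 (SE 0.091, adjusted p = 0.00337), from 258.0 ± 37.3 CPM to 349.1 ± 23.9 CPM (SD, n = 7 and n = 6).

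The strict large subunit members that did not pass the threshold were Rpl7a, Rpl23a and Rpl30. Rpl7a, one of the most abundant per length, was at 298.6, 341.9 and 378.7 CPM in fl/fl and 332.7, 372.3 and 439.2 CPM in iADKO, and the groups overlapped (log2 fold change 0.14, SE 0.077, adjusted p = 0.18). Its printed window holds a run of 17 pyrimidines from the first base of the window, which lies before the RefSeq start. The runs of the called Rps6, Rps26, Rpl12 and Rpl35 begin further in. In the called Rps27l and Rpl22, a printed run also begins at the first base. Whether the position of the run goes with the call was not tested. On the log2 scale Rpl23a differed by 0.20 (adjusted p = 0.087) and Rpl30 by 0.28 (adjusted p = 0.0784). With total counts as the only scaling, which called 44.2% of all genes higher, both Rpl7a and Rpl23a were called higher. Rpl23a was also called without iADKO replicate 2 (adjusted p = 0.021).

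In the small subunit, Rps6, the ribosomal target of the S6 kinases, was at 162.7, 190.4 and 205.1 CPM (lowest, median and highest) in fl/fl and 213.8, 244.9 and 255.8 CPM in iADKO. The groups did not overlap, and the log2 fold change was 0.36 (SE 0.065, adjusted p = 0.00167). Rps3, at the entry of the mRNA channel, rose by 0.37 (adjusted p = 0.00349) and Rps4x by 0.30 (adjusted p = 0.00501), both without overlap. Rps27a, made as a fusion with ubiquitin, had 1 of the larger differences of the family and went from 224.5 ± 26.6 CPM to 313.3 ± 32.6 CPM (SD, n = 7 and n = 6), with a log2 fold change of 0.48 (adjusted p = 0.00167). Rps26, near the mRNA exit, was at 122.8, 145.2 and 164.7 CPM in fl/fl and 176.6, 200.2 and 204.1 CPM in iADKO (log2 fold change 0.41, adjusted p = 0.00106). Rps16 (0.39, adjusted p = 0.00232) was higher as well.

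Rps2, which held the most counts per kilobase of exon of the family, went from 676.6 ± 32.9 CPM to 854.4 ± 86.4 CPM (SD, n = 7 and n = 6), with a log2 fold change of 0.34 (adjusted p = 0.00436). The next highest levels per kilobase of exon were those of Rps4x, Rpl10, Rpl4, Rpl8 and Rpl7a. Rpl4 (0.24, adjusted p = 0.0132) and Rpl8 (0.31, adjusted p = 0.00863) were higher in iADKO, as were Rps4x and Rpl10, while Rpl7a did not pass the threshold. Rps19, the gene most often mutated in Diamond-Blackfan anemia, did not pass the threshold (log2 fold change 0.18, SE 0.078, adjusted p = 0.101), with 230.8, 238.9 and 295.2 CPM in fl/fl and 248.6, 286.9 and 320.0 CPM in iADKO, and it was called without fl/fl replicate 7 or without iADKO replicate 1 (lowest adjusted p = 0.0471). Rps24 (0.24, adjusted p = 0.0594) missed it by little.

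The 2 highest fitted fold changes among the strict members belong to genes that hold few counts. For Rpl24 the log2 difference was 0.90 (SE 0.21, adjusted p = 0.00653) from 0.269, 0.376 and 0.494 CPM in fl/fl to 0.48, 0.708 and 0.973 CPM in iADKO, and only 136 counts over all mice. Rps10 had 0.66 (SE 0.14, adjusted p = 0.00312) from 849 counts, and Rpl13a 0.40 (adjusted p = 0.00832) from 1486 counts. In GENCODE, 83.4%, 92.1% and 97.5% of their coding bases lie in exons of another gene on the same strand, and these were the only strict members with such an overlap. The other 70 strict members held 14938 to 193354 counts each. How the unstated counting step treated reads in the overlapped bases is not known, and the overlapping genes are not among the genes counted. Whether the overlap lowered the counts of Rpl24, Rps10 and Rpl13a was not tested. Their fold changes were measured at a depth far below that of the family. Neither Rpl24 nor Rps10 was called with the series block.

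**Figure D4:**
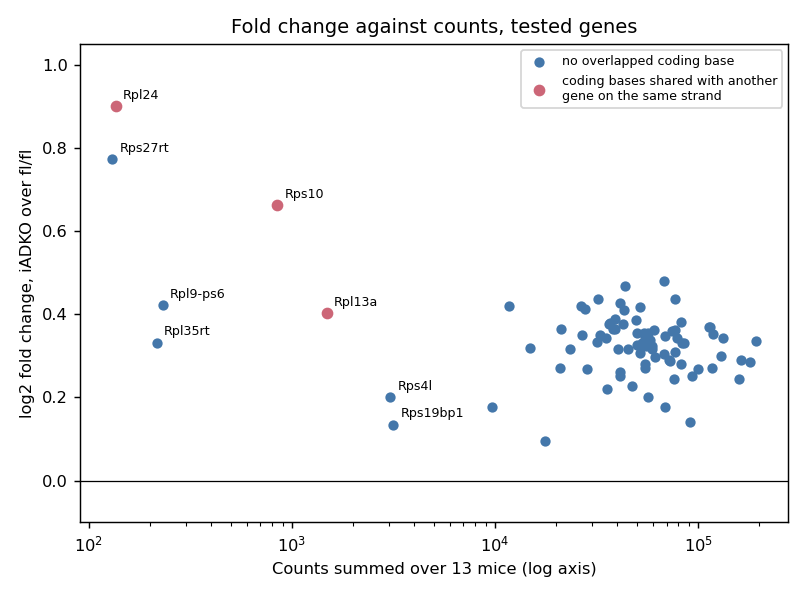
Log2 fold change, iADKO over fl/fl (vertical axis), against counts summed over 13 mice (horizontal log axis) for the 81 tested members and 6 ribosomal proteins outside the symbol rule. The genes whose coding bases are shared with another gene on the same strand hold 136 to 1486 counts, and the fold changes spread most at that end.

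Of the 10 members that are not ribosomal proteins in the strict sense, 8 were tested. Among these 1 was higher, Rps27l, and 7 did not pass the threshold, when 14.1% of all genes tested were called higher. This count is near that share. Rps27l, a paralogue of Rps27 that is known as a p53 target, was at 37.6, 38.8 and 47.4 CPM in fl/fl and 46.7, 54.3 and 57.5 CPM in iADKO. The ranges overlapped only through fl/fl replicate 7, and Rps27l had the smallest p of all members (log2 fold change 0.42, SE 0.067, adjusted p = 0.000761). Rpl7l1, a relative of Rpl7 that acts in ribosome assembly, had the smallest fold change of all (0.094, SE 0.055, adjusted p = 0.208), at 67.5 ± 4.5 CPM and 72.0 ± 4.46 CPM (SD, n = 7 and n = 6). Rps19bp1, a binding partner of Rps19, stood at 0.13 (adjusted p = 0.328), Rpl22l1 at 0.18 (adjusted p = 0.184) and Rps4l at 0.20 (adjusted p = 0.209), and Rpl22l1 was called without fl/fl replicate 7 (adjusted p = 0.0198). The intronless copies Rps27rt (0.77, adjusted p = 0.0802), Rpl9-ps6 (0.42, adjusted p = 0.114) and Rpl35rt (0.33, adjusted p = 0.284) held only 131, 231 and 216 counts, and reads may be shared with the parent genes. Rps4l, with 3055 counts, also has 1 exon, and the same caution holds for its reads and those of Rps4x.

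Each paralogue was also set against its partner within the same mouse, which removes the scaling between libraries. Rpl7l1 stood at 20.4% of Rpl7 in fl/fl and 18.1% in iADKO (difference in log2 ratio -0.16, exact two-sided permutation test, p = 0.197). Rpl22l1 stood at 27.4% and 26.6% of Rpl22 (-0.041, exact p = 0.539), Rps4l at 2.5% and 2.3% of Rps4x (-0.11, exact p = 0.481), and Rps27l at 28.4% and 26.7% of Rps27 (-0.076, exact p = 0.589). These percentages compare CPM and are not corrected for length, and reads of Rps4l and Rps4x may be shared. None of the 4 differences was larger than the spread between mice, and the Benjamini-Hochberg adjusted p was 0.589 for each. The partners Rpl7 (log2 fold change 0.25, adjusted p = 0.0408), Rpl22 (0.22, adjusted p = 0.0366) and Rps27 (0.47, adjusted p = 0.0131) were higher in iADKO on their own, and Rpl7 and Rpl22 each lost the call when any of 7 single mice was left out (highest adjusted p = 0.0881 and 0.0735). Rps27 was lowest in fl/fl replicates 1 and 3 (99.4 CPM and 109.4 CPM), and without fl/fl replicate 1 the difference for Rps27l and Rps27 was 0.0088 in place of -0.076.

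The members with too few counts are Rpl36al and Rpl3l, which held at least 100 counts and did not pass the filter, and 5 genes below 100. Rpl36al held 122 counts, and 95.3% of its coding bases lie in another gene. Rpl3l, the striated muscle paralogue of Rpl3, held 41, 3, 5, 6, 40, 4 and 1 counts in fl/fl replicates 1 to 7 and 4, 0, 34, 2, 25 and 3 counts in iADKO replicates 1 to 6. The 4 mice with 25 counts or more were those with the highest summed skeletal muscle markers (302.7, 385.3, 134.3 and 211.3 CPM, against 13.2 to 79.0 CPM in the others). Rpl10-ps3, Rpl39l, Rps23rg1, Rps18-ps6 and Rpl27rt held 24, 23, 19, 16 and 7 counts over all mice.

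The 6 ribosomal proteins measured outside the symbol rule were all called higher in iADKO (median log2 fold change 0.30), when 14.1% of all genes were. The stalk proteins Rplp0, Rplp1 and Rplp2 rose by 0.29 (adjusted p = 0.00792), 0.35 (adjusted p = 0.0046) and 0.29 (adjusted p = 0.00644) on the log2 scale. Rplp0, which is often used as a reference gene for normalization, went from 576.2 ± 33.6 CPM to 704.1 ± 65.4 CPM (SD, n = 7 and n = 6) without overlap. Rpsa (0.29, adjusted p = 0.0166), Rack1 (0.37, adjusted p = 0.00352), a scaffold on the small subunit, and the ubiquitin-like fusion gene Fau (0.32, adjusted p = 0.0308) were also higher. With the animal-number series as a block 4 of the 6 were called higher, when 4.68% of all genes were, and Fau and Rpsa were not called.

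Genes that build the ribosome were examined next. Of 68 genes of ribosome biogenesis, 31 were higher and 3 lower (median log2 fold change 0.17, against 14.1% and 16.3% called over all genes). Nop58, a core protein of the box C/D particles that guide methylation of ribosomal RNA, was at 17.2, 20.2 and 26.0 CPM in fl/fl and 27.0, 31.6 and 34.4 CPM in iADKO, without overlap (log2 fold change 0.58, adjusted p = 0.000664). Taf1d, a subunit of the factor that recruits RNA polymerase I, rose by 0.49 (adjusted p = 0.00043). Nop56 (0.35, adjusted p = 0.000794) and Gnl3 (0.40, adjusted p = 0.00359), chosen after their values were seen, are a partner of Nop58 and a nucleolar GTPase. Rcl1 (-0.47, adjusted p = 0.00241), which cleaves the ribosomal RNA precursor, and Dkc1 (-0.33, adjusted p = 0.00891), the pseudouridine synthase of box H/ACA particles, were lower. With total counts as the only scaling or the series block, Dkc1 was not called. The number of higher biogenesis genes was 15 with the series block, 17 with no filter and 56 with total counts. The shares of all genes called higher were 4.68%, 4.83% and 44.2% in these settings.

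The TOP motif is also known from mRNAs of other proteins. Of 21 such genes, most of them translation factors, 9 were higher and 0 lower in edgeR's test, with a median log2 fold change of 0.13, against 14.1% higher and 16.3% lower over all genes. The number higher was 4 with the series block and 20 with total counts as the only scaling, when 4.68% and 44.2% of all genes were. Snhg1 (0.50, adjusted p = 0.00659) and Gas5 (0.36, adjusted p = 0.00204), non-coding hosts of small nucleolar RNAs with a TOP start, had the widest differences. The elongation factor genes Eef1b2 (0.32, adjusted p = 0.00983) and Eef1g (0.26, adjusted p = 0.0039) were higher, while Eef1a1 (0.13, adjusted p = 0.278) and Eef2 (0.057, adjusted p = 0.587), the highest of the list in counts per kilobase of exon, did not pass the threshold. The elongation factor genes were chosen after their values were seen.

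Of 18 genes of the mTOR and MYC pathways that act on ribosome synthesis, 3 were higher and 7 lower (median -0.10), and the share that was higher was near that over all genes (14.1%, with 16.3% lower). Myc was at 15.0, 16.5 and 20.8 CPM in fl/fl and 22.3, 24.3 and 30 CPM in iADKO, without overlap (log2 fold change 0.54, adjusted p = 0.000752). Mycn, at no more than 1.11 CPM in any mouse, was lower (-1.08, adjusted p = 0.00612). The other higher genes were Larp4b, an RNA-binding protein (0.18, adjusted p = 0.0278), and Rictor (0.14, adjusted p = 0.0374). The lower genes included Mtor (-0.44, adjusted p = 0.00222), its mTORC1 partner Rptor (-0.24, adjusted p = 0.00738), the S6 kinase gene Rps6kb1 (-0.38, adjusted p = 0.000525) and the translation repressor Eif4ebp1 (-0.52, adjusted p = 0.0036). Larp1 (-0.12, adjusted p = 0.0988) did not pass the threshold. These are mRNA levels, and the activity of the kinases was not measured. Mtor, Rptor, Rictor and Rps6kb1 were named after their values were seen. With total counts as the only scaling, 8 genes of this list were called higher, and with the series block 1 was. Over all genes the shares called higher were 44.2% and 4.68%.

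Proteins of the mitochondrial ribosome, which translates the mitochondrial genome, served as a comparison with a like function. Of 77 such genes, 0 were higher and 31 lower in edgeR's test (median log2 fold change -0.20), against 14.1% and 16.3% over all genes. Mrpl17 fell by 0.47 on the log2 scale (adjusted p = 0.00146, chosen after its value was seen). With total counts as the only scaling the median was 0.0064, with 6 higher and 6 lower. Under that scaling 44.2% of all genes were higher and 1276 of 16753 lower. Relative to the median of all genes, the family stood at -0.23 with either scaling, a distance that a shift of all genes leaves nearly unchanged. With the series block, 7 of the 77 were called lower, when 1202 of all 16753 genes were. Within the series of 2 mice of each genotype the median of the mitochondrial family was -0.0061, and within the other series it was -0.35, while the cytosolic members stood at 0.34 and 0.31. Without fl/fl replicate 5 the number of lower mitochondrial genes was 49 in place of 31. Calls over all genes rose as well, with 3285 of 16638 lower in place of 2737 of 16753.

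**Figure D5:**
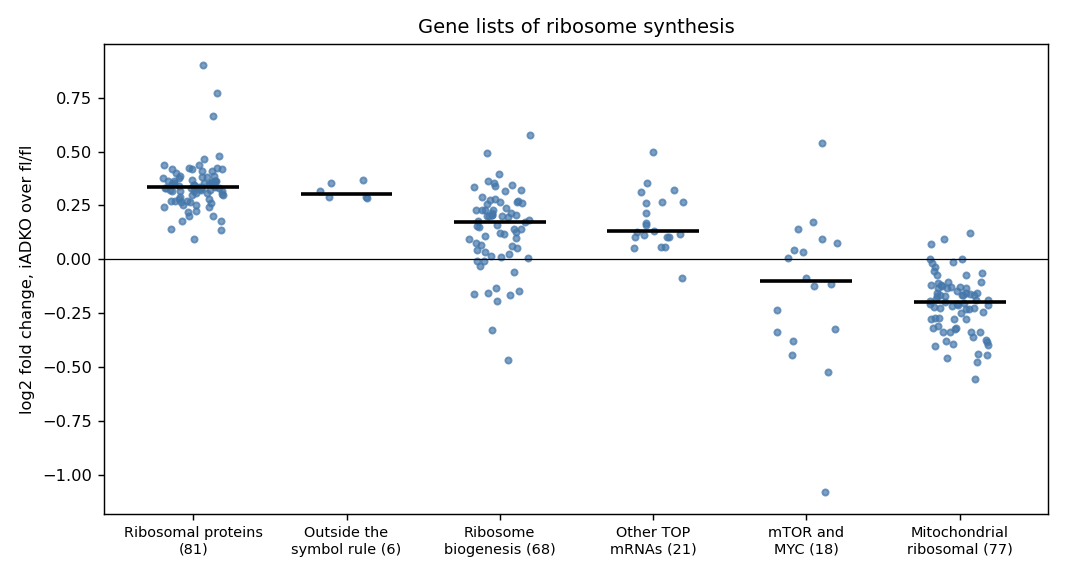
Log2 fold change, iADKO over fl/fl (vertical axis), of the tested genes of each list, with a point for each gene and a bar for the median. The medians are 0.33 for the members, 0.30 for the ribosomal proteins outside the symbol rule, 0.17 for ribosome biogenesis, 0.13 for other TOP mRNAs, -0.10 for the mTOR and MYC genes and -0.20 for mitochondrial ribosomal proteins.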

How the data were processed

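Whole pmWAT of 13 female mice was sequenced, 1 library per mouse, and groups were taken from the sample labels. Per the study's methods and the submitters' processing notes, strand-specific paired reads were checked with FastQC 0.12.1 and aligned with STAR 2.7.11a to mm39. The counting tool and gene annotation are not given in the sources used here. The authors deposited unnormalized read counts for each gene, together with log2 values that the regularized log (rlog) of DESeq2 gives from them. The counts were the main input, and the rlog values were used in 1 alternative.

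Gene symbols came from GENCODE vM39, which held 33184 of the 33618 identifiers, and coordinates are on GRCm39. In R 4.3.3, genes were filtered with filterByExpr (16753 left), scaled by TMM and compared between genotypes with the robust quasi-likelihood test of edgeR 4.0.16, with Benjamini-Hochberg adjustment over all genes tested. The threshold was 0.05. Every adjusted p in the text is from this test unless stated. CPM are TMM-normalized. Paralogue ratios used log2 of CPM + 0.5 and an exact two-sided permutation test over mice, whose smallest p is 0.000583. Errors are the spread between mice, counting error included.

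The members and lists were chosen with earlier results of these data known, so counts and medians of a list are descriptions and received no test of their own. The genes named were the tested paralogues, the 5 highest and 5 lowest fold changes among the other members, the 10 members with the smallest p, the 5 highest and 3 lowest in counts per kilobase of exon, the ribosomal proteins outside the symbol rule, members with known special roles, and in each other list the called genes with the 2 highest and 2 lowest fold changes. Others are marked as chosen after their values were seen. RefSeq start sites were found for 54 of the 73 strict members, so motif shares used GENCODE canonical starts. Scripts were tested on simulated data. Alternatives were the Wald test of DESeq2 1.42.0, limma 3.58.1 on the rlog values, other scalings and filters, blocks, and each mouse left out. Some single-gene values are left out here.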

Additional observations from a re-analysis of the deposited data

Results flagged for a closer look

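In 116 groups of mice, values of the named genes were searched for a mouse that stood far from the others of its genotype by Dixon's criterion. Only 3 were found, fewer than chance gives at about 1 in 20 groups. Fl/fl replicate 7 was at 47.6 CPM in Rpl22l1, where the other fl/fl mice were at 29.6 to 36.8 CPM. The same mouse was at 47.4 CPM in Rps27l, where the others were at 37.6 to 39.5 CPM. It also had the highest share of counts on ribosomal protein genes of its genotype. IADKO replicate 3 was at 5.44 CPM in Rps10, where the other iADKO mice were at 3.44 to 4.16 CPM, and the coding bases of Rps10 are shared with another gene.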

How the results depend on the processing

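The members called higher numbered 60 to 72 when each mouse was left out in turn, 63 without both fl/fl replicate 5 and iADKO replicate 6 (chosen after seeing the data), 64 with no filter on low counts, 69 with DESeq2 and with limma, and 46 with the animal-number series as a block. Leaving out single mice gave a members' median of 0.30 to 0.37, 34 to 41 large subunit and 26 to 31 small subunit genes higher, and 5 to 6 of the genes outside the symbol rule. It gave 21 to 33 biogenesis genes higher and 2 to 5 lower, 6 to 11 other TOP genes higher, 1 to 4 mTOR and MYC genes higher, and 25 to 49 mitochondrial ribosomal genes lower, the most without fl/fl replicate 5. Without that mouse 3285 of all 16638 genes tested were lower. The log2 ratio difference of Rps27l to Rps27 ran from -0.13 to 0.0088 and changed sign without fl/fl replicate 1. The series block gave 23 large subunit genes higher, 4 genes outside the rule, 15 biogenesis genes higher and 1 lower, 4 other TOP genes, 1 mTOR and MYC gene higher and 7 mitochondrial ribosomal genes lower. With this block 4.68% of all genes were called higher and 1202 of 16753 lower. Scaling by total counts alone called 44.2% of all genes higher. It gave a members' median of 0.53, with 56 biogenesis genes higher and 1 lower. Higher as well were 20 other TOP genes and 8 mTOR and MYC genes. Of the mitochondrial ribosomal genes, 6 were lower and 6 higher. No filter gave 17 biogenesis genes higher. No filter, limma on rlog values and the replicate block each gave 1 mTOR and MYC gene higher. Without fl/fl replicate 5 and iADKO replicate 6, 6 biogenesis and 63 mitochondrial ribosomal genes were lower, when 3910 of all 16769 genes tested were. The cause was not tested in these cases.

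Same-numbered mice of the 2 genotypes had residual correlations over 0.1 in 3 of 6 pairs, with a mean of 0.11 against -0.020 for the other pairs. Of 6 iADKO mice, 2 correlated best with the control of their own number. These values do not settle whether the numbers pair the mice. With the replicate number as a block and fl/fl replicate 7 left out, 72 of 79 members were called higher (median 0.38). Of the values of single named genes under these settings, 1548 kept direction and side of the threshold, 103 lost the call, 16 gained it and none reversed. Leaving out a single mouse ended the call of Fau in 5 cases (fl/fl replicates 1, 2, 3 and 6 and iADKO replicate 4, highest adjusted p = 0.0713) and of Larp4b in 5 (fl/fl replicates 4 and 6 and iADKO replicates 2, 3 and 4, highest 0.0657), and made a call of Rps27rt without iADKO replicate 5 (adjusted p = 0.0238). For Rpl7 these were fl/fl replicates 1, 3, 4 and 6 and iADKO replicates 3, 4 and 5, for Rpl22 fl/fl replicates 1, 3 and 6 and iADKO replicates 3, 4, 5 and 6, and for Rpl39 fl/fl replicates 1, 2, 3 and 6 and iADKO replicates 2, 3, 4 and 5. The depth limits Rpl24, Rps10, Rps27rt, Rpl9-ps6 and Rpl35rt most.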

Other observations

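Copies of ribosomal protein genes elsewhere in the genome can take reads of their parents. The count table holds 202 further rows with such symbols that are not annotated as protein coding, nearly all processed pseudogenes, and together they held 36465 counts against 4308749 counts on the members. More than any other, Rps3a3 held 19185 of these counts and Rps3a2 held 3738, beside 31896 on the parent gene Rps3a1. Rps3a3 went from 66.0 ± 8.14 CPM to 85.8 ± 6.58 CPM (SD, n = 7 and n = 6), with a log2 fold change of 0.38 (adjusted p = 0.00346). Rps3a2 had 0.44 (adjusted p = 0.00837), and Rps3a1 had 0.33 (adjusted p = 0.0104). The levels of these 3 genes are uncertain, because the counting step could have split reads between near-identical copies.

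The 24 strict members with CTTTC near the start had a median log2 fold change of 0.343, and the 49 without it had 0.334. The 42 with CGGAAG had 0.339 and the 31 without it 0.324. AANATGGC (N is any base), the YY1 core, was searched in the same window as CGGAAG. The 8 strict members with it (11%, against 6.38% of all genes searched) had 0.407 and the 65 without it 0.333. TATAAA, searched in the 50 bases before the start, was present in 1 strict member. No difference between these medians was tested.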
